A study of Drosophila melanogaster with 16 samples.

Results

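Complex I (NADH:ubiquinone oxidoreductase) is built from subunits of both the mitochondrial and the nuclear genome. The nuclear subunits described here are the genes of the count table whose NCBI Drosophila symbol starts with "ND-", which were 40 of 17207 genes. Of these, 33 encode a counterpart of a mammalian complex I subunit, 1 is ND-MLRQ, whose mammalian counterpart was first described in complex I and later assigned to complex IV, and 6 are paralogs of one (ND-51L1, ND-51L2, ND-24L, ND-B14.5AL, ND-49L and ND-20L). The rule used the symbol and no measured value, though earlier results of these data were known when it was set.

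RNA was profiled by poly(A)-selected sequencing from whole *Drosophila melanogaster* larvae of the third instar, described in the methods of the study as female and wandering. The flies carried Alstonville or Dahomey mtDNA and were fed food with a Protein:Carbohydrate (P:C) ratio of 1:2 or 1:16 (1:2 food and 1:16 food below), with 4 libraries for each of the 4 combinations. All groups shared the w1118 nuclear background and calorie-matched food. The mitotypes had been combined with that background by chromosome replacement and repeated backcrossing, but chromosome 4 may still differ between them. Effects of mtDNA and of chromosome 4 therefore cannot be told apart for any gene compared between mitotypes. The single member located on chromosome 4 is ND-49. The design text calls the libraries independent replicates without saying whether each held separate cultures, so p-values measure the spread between these libraries. The extraction label speaks of sorted cells whereas the source label names larvae. Muscle, fat body, midgut and neuron marker genes were all detected in each group.

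Complex I takes electrons from NADH, passes them to ubiquinone, and pumps protons across the inner mitochondrial membrane. Its N module holds the flavin and oxidises NADH, its Q module reduces ubiquinone, and its P module is the membrane arm that pumps. The core subunits of the N and Q modules are nuclear, the core of the membrane arm is encoded by mtDNA, and accessory subunits surround both arms. In larvae the complex is known to be abundant in muscle. Roles given below are those of the mammalian or fly subunit as textbooks state them.

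Libraries held 24869991 to 31896525 counts, of which 0.109 to 0.385% fell on the 40 genes. Levels are given in CPM, the count of a gene relative to the TMM-scaled library total. Of the 40 genes, 39 passed the filter on low values (at least 0.25 CPM in at least 4 libraries). A set of 32 of them averaged at least 5 CPM over all libraries, a limit chosen after the values were seen, and these carry the results below. The lowest of them, ND-MWFE, averaged 6.24 CPM and ND-51L1, just below the limit, 2.64 CPM. ND-MWFE passed through its means on 1:16 food (9.84 CPM in Alstonville, 7.93 in Dahomey), with 3.70 and 3.48 CPM on 1:2 food. The 7 below the limit were the 6 paralogs and ND-B8, an accessory subunit of the N module. Their fitted changes had the opposite sign, 7 of 7 lower on 1:16 food in each mitotype and 7 of 7 higher in Dahomey on each diet. Of these edgeR called 1, ND-51L2 with diet in Alstonville. In Dahomey on 1:2 food the 7 genes summed to 43.8 CPM in replicate 4 and to 0.104 to 5.38 CPM in the other libraries. The median of these sums was lower on 1:2 food (2.75 CPM) than on 1:16 food (5.81 CPM) in Dahomey. The change of ND-B8 with diet there was -0.005 on the log2 scale. ND-MNLL, an accessory subunit of the membrane arm at X:7893053-7893798, had 0 counts in all 16 libraries. All of its exon bases are shared with CG45089 on the same strand, which also had 0 counts, and how reads on shared exons were assigned is not given in the sources used here. The 40 genes lie on chromosome arms 2L (9 genes), 2R (8), 3L (9) and 3R (4) and on chromosomes 4 (1) and X (9).

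In both mitotypes all 32 genes rose on 1:16 food, with a median of 3.46-fold in Alstonville and 2.75-fold in Dahomey. Between mitotypes edgeR called no gene on either diet, other fits called 0 to 33 on 1:16 food, and all 32 had a lower fitted level in Dahomey there. The levels summed over the 32 genes, of which ND-MLRQ made up 5.27 to 7.56%, show both patterns. In Alstonville larvae on 1:2 food they were 942, 993, 1082 and 1989 CPM in replicates 1 to 4, and on 1:16 food 4487, 4338, 4384 and 4464 CPM. In Dahomey larvae they were 1045, 1215.5, 996 and 1062 CPM on 1:2 food and 3277, 2158, 3688 and 3083 CPM on 1:16 food. The diets did not overlap in either mitotype, the mitotypes did not overlap on 1:16 food, and they overlapped on 1:2 food.

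In each mitotype, 1 library lay on the same side of its group for all 32 genes. Replicate 4 of Alstonville on 1:2 food was the highest of its group for 32 of 32 genes, with a median of 1.96 times the mean of the other libraries. Replicate 2 of Dahomey on 1:16 food was the lowest of its group for 32 of 32 genes, with a median of 0.640 times. Replicate 3 of the latter group was the highest for 31 of 32 (1.32 times), and replicate 2 of Dahomey on 1:2 food for 30 of 32 (1.17 times). The libraries at 1.96 and 0.640 times also stood apart in markers of other tissues and stages. In Alstonville 1:2 P:C replicate 4, summed muscle markers were 37048 CPM against 3481 to 10540 CPM in the other libraries of its group. Summed midgut markers were also highest there (15983 CPM, others 3717 to 7646), as were summed fat body markers (145206 CPM, others 47621 to 73639). In Dahomey 1:16 P:C replicate 2, summed salivary glue gene levels were 2639 CPM against 4.20 to 5.74 CPM. Mitotype differences and the interaction are given with and without these libraries.

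**Figure D1:**
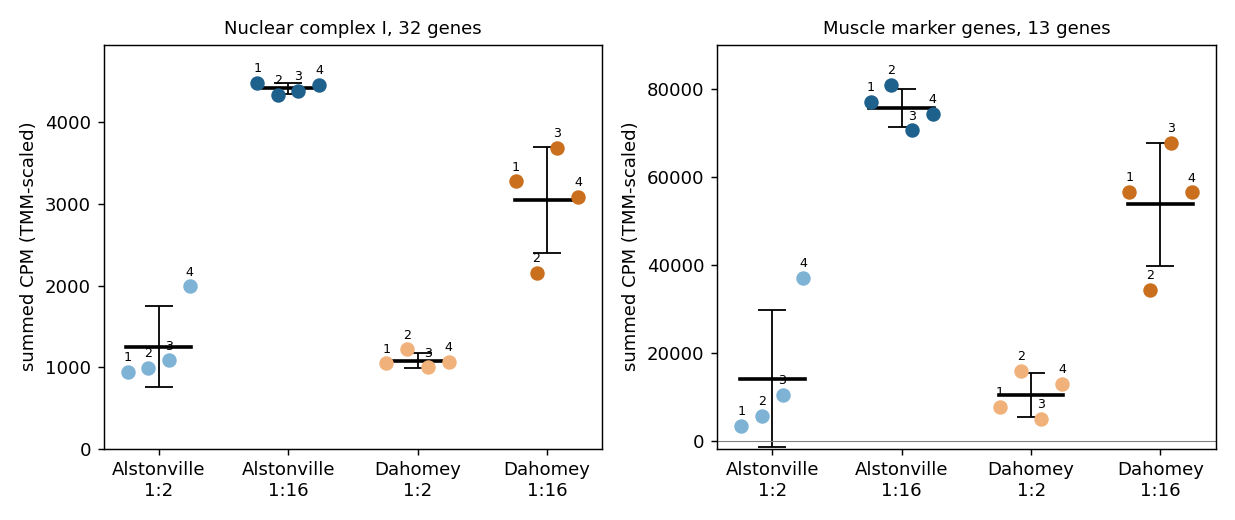
Summed TMM-scaled CPM of the 32 nuclear complex I genes (left) and of 13 muscle marker genes (right) in each library, numbered by replicate, with the group mean (line) and SD (bars, n = 4). The 8 libraries of larvae on 1:16 food lie between 2158 and 4487 CPM for complex I, and those on 1:2 food between 942 and 1989 CPM.

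The levels of the genes were compared per kilobase of exon. In Alstonville larvae on 1:16 food the median over the 32 genes was 121 CPM per kb. ND-MLRQ was the highest with 563 ± 6.1 CPM per kb (SD, n = 4). It was followed by the flavin subunit ND-51 (210 ± 6.7), the acyl carrier protein ND-ACP (200.4 ± 4.4) and the membrane arm subunit ND-SGDH (199.8 ± 4.1), the latter pair within their spread. The lowest were ND-13A (59.1 ± 2.8), ND-B18 (53.1 ± 2.3) and ND-MWFE (11.7 ± 0.65). ND-MWFE shares 35.0% of its exon bases with TppII on the opposite strand, and whether strand was used in counting is not given in the sources used here. In this group 14 of 31 neighbours in the order lay within their spread of each other, against 29 of 31 in Alstonville on 1:2 food, 27 of 31 in Dahomey on 1:2 food and 29 of 31 in Dahomey on 1:16 food. The spread includes shifts of a whole library that move the genes together. These counts therefore do not show how well the order held within a library.

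The effect of diet was examined in Alstonville larvae first. All 32 genes rose on 1:16 food by edgeR's quasi-likelihood test (Benjamini-Hochberg adjusted p of 0.000455 or less), where 30.6% of all 12750 tested genes rose. The median log2 fold change was 1.79 (3.46-fold), against -0.11 over all tested genes, and single genes ranged from 1.32 (ND-15) to 2.15 (ND-51). For 32 of 32 genes every library on 1:16 food was above every library on 1:2 food, as for 29.1% of all tested genes. By module the medians were 1.93 for N (4 genes), 1.77 for Q (10) and 1.78 for P (17), with ND-MLRQ in none of them. By kind they were 1.84 for core (7) and 1.78 for accessory subunits (25, with ND-MLRQ counted among them). With 3 surrogate variables in limma-trend all 32 stayed called, with a median of 0.82, where 2747 of 12750 tested genes were called higher.

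Dahomey larvae showed the same direction. All 32 genes rose (adjusted p of 0.00234 or less by the edgeR test), where 24.6% of all tested genes rose. Of the 39 tested, 0 fell, against 24.4% of all tested genes. The median log2 fold change was 1.46 (2.75-fold), against -0.12 over all tested genes, and single genes ranged from 0.98 (ND-AGGG) to 1.81 (ND-B14.5A). For 31 of 32 genes the libraries of the diets did not overlap, as for 25.1% of all tested genes. The exception was ND-MWFE. By module the medians were 1.61 for N, 1.43 for Q and 1.43 for P, and by kind 1.54 for core and 1.41 for accessory subunits, in the same sets of genes. With 3 surrogate variables in limma-trend 26 of the 32 stayed called and the median was 0.50, where 1381 of 12750 tested genes were called higher.

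**Figure D2:**
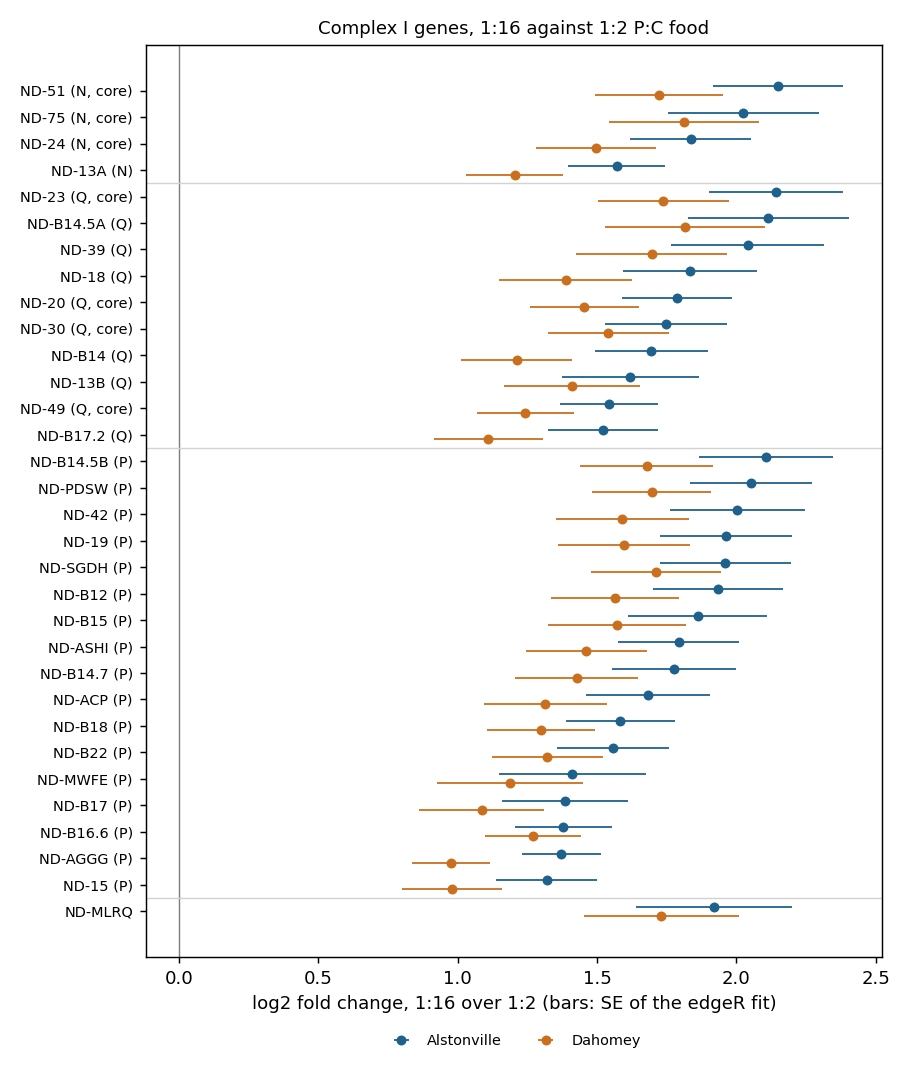
Fitted log2 fold change of 1:16 food over 1:2 food for the 32 nuclear complex I genes in Alstonville (blue) and Dahomey (orange) larvae, with the SE of the edgeR fit as bars, grouped by N, Q and P module. All values are above 0, from 0.98 to 2.15.

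Within the N module, ND-51 (2L:6060842-6062757) binds the flavin and oxidises NADH. In Alstonville larvae it had 56.7, 55.5, 70.3 and 119 CPM on 1:2 food and 350, 333, 329 and 326 CPM on 1:16 food. In Dahomey larvae it had 64.6, 72.0, 60.4 and 63.8 CPM and then 236, 144, 263 and 216 CPM. The diets did not overlap in either mitotype, and the 1:16 libraries of Dahomey were all below those of Alstonville. The log2 fold change with diet was 2.15 (SE 0.23) in Alstonville and 1.72 (SE 0.23) in Dahomey.

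ND-75 (X:8248651-8251687), the large iron-sulfur subunit of the same module, had 71.0, 77.2, 91.9 and 184 CPM in Alstonville larvae on 1:2 food and 440, 417, 431 and 438 CPM on 1:16 food. Dahomey larvae had 78.5, 101, 74.4 and 96.6 CPM and then 330, 211, 377 and 315 CPM. It had the highest CPM of the core subunits on 1:16 food, a value not corrected for its length. The log2 fold change with diet was 2.03 (SE 0.27) in Alstonville and 1.81 (SE 0.27) in Dahomey. ND-24 (X:17632089-17633509), the iron-sulfur subunit beside the flavin, had 25.3, 25.7, 28.2 and 50.3 CPM and then 116, 114, 116 and 116 CPM in Alstonville. In Dahomey it had 27.6, 31.4, 25.2 and 27.4 CPM and then 83.4, 54.3, 98.5 and 78.6 CPM. Its 4 Alstonville libraries on 1:16 food had an SD of 0.931 CPM, while the SD in Dahomey was 18.3 CPM. The log2 fold change of ND-24 was 1.84 (SE 0.22) in Alstonville and 1.50 (SE 0.22) in Dahomey.

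Of the Q module, ND-49 (4:568296-571554) lines the ubiquinone pocket. It had 79.6, 77.7, 86.8 and 140 CPM in Alstonville larvae on 1:2 food and 277, 284, 271 and 286 CPM on 1:16 food. In Dahomey it had 87.6, 78.7, 83.6 and 83.1 CPM and then 217, 148, 229 and 194 CPM. Its change with diet was the smallest of the core subunits in both mitotypes, 1.54 (SE 0.18) in Alstonville and 1.24 (SE 0.17) in Dahomey on the log2 scale. ND-20 (X:15985473-15986808) carries the iron-sulfur cluster that hands electrons to ubiquinone. It had 37.8, 37.9, 40.7 and 69.3 CPM and then 167, 158, 159 and 157 CPM in Alstonville. In Dahomey it had 40.5, 43.9, 40.5 and 41.0 CPM and then 122, 78.2, 139 and 116 CPM. The log2 fold change of ND-20 was 1.79 (SE 0.20) in Alstonville and 1.45 (SE 0.20) in Dahomey.

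ND-23 (3R:15836048-15837117), an iron-sulfur subunit of the electron path, had 16.3, 17.3, 21.4 and 37.2 CPM in Alstonville larvae on 1:2 food and 102, 102, 99.3 and 103 CPM on 1:16 food. In Dahomey it had 20.3, 23.2, 18.4 and 21.7 CPM and then 77.2, 47.4, 84.3 and 69.9 CPM. Its log2 fold change of 2.14 (SE 0.24) in Alstonville was second to that of ND-51, and in Dahomey it was 1.74 (SE 0.24). ND-30 (3L:3158485-3159578), a core subunit of the hydrophilic arm, had 26.0, 28.9, 28.8 and 54.8 CPM and then 120, 114, 112 and 119 CPM in Alstonville. In Dahomey it had 26.5, 31.6, 25.6 and 29.3 CPM and then 85.4, 57.5, 101 and 85.0 CPM. The log2 fold change of ND-30 was 1.75 (SE 0.22) in Alstonville and 1.54 (SE 0.22) in Dahomey. ND-B14.5A (X:2172526-2173432), an accessory subunit of the Q module, was among the 3 largest changes in both mitotypes. It had 10.1, 12.7, 12.8 and 29.8 CPM and then 72.4, 66.7, 71.6 and 72.5 CPM in Alstonville. In Dahomey it had 12.4, 15.02, 11.99 and 11.9 CPM and then 45.7, 30.3, 56.0 and 48.4 CPM. Its log2 fold changes were 2.11 (SE 0.29) in Alstonville and 1.81 (SE 0.29) in Dahomey.

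The accessory subunits followed the core subunits with a wider range. ND-39, which binds NADPH, rose from 77.4 ± 35.7 to 318 ± 11 CPM in Alstonville (SD, n = 4). ND-18, at the joint of the N and Q modules, rose from 25.6 ± 11.1 to 91.1 ± 4.2 CPM. In the membrane arm the largest changes in Alstonville were those of ND-B14.5B (2.11) and ND-PDSW (2.05), and the smallest those of ND-15 (1.32), a twin-CHCH protein, and ND-AGGG (1.37). ND-AGGG rose from 44.4 ± 9.8 to 115 ± 5.5 CPM in Alstonville and from 45.5 ± 5.8 to 89.6 ± 11.3 CPM in Dahomey. The acyl carrier protein ND-ACP, which also serves mitochondrial fatty acid synthesis, rose from 52.6 ± 21.2 to 169 ± 3.7 CPM in Alstonville and from 45.2 ± 6.1 to 112 ± 22.6 CPM in Dahomey. ND-MWFE, a single-span protein of the membrane arm, was the gene with the highest adjusted p in both mitotypes, with 3.03 to 4.42 and 9.29 to 10.6 CPM in Alstonville and 2.15 to 5.52 and 5.10 to 9.47 CPM in Dahomey. Its read support was the lowest of the 32, at 62 to 232 counts per library.

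Muscle markers moved with diet as well. In Alstonville 12 of 13 and in Dahomey 11 of 13 rose, with median log2 fold changes of 2.24 and 2.16. Their summed level was 3481 to 37048 and 70558 to 80827 CPM in Alstonville on 1:2 and 1:16 food, and 5092 to 16047 and 34398 to 67673 CPM in Dahomey. Salivary glue genes were at 8898 to 16000 CPM in the 8 libraries of 1:2 food and at 4.20 to 6.60 CPM in 7 of the 8 of 1:16 food. Of 12 ecdysone early response genes, which mark the hormone pulse before pupariation, 11 fell on 1:16 food in each mitotype, from 932 to 4186 to 281 to 301 CPM in Alstonville and from 1363 to 3719 to 329 to 885 CPM in Dahomey. Of 6 fat body markers 4 fell on 1:16 food in Alstonville, from 47621 to 145206 to 5379 to 35828 CPM summed, and 3 fell in Dahomey, from 55485 to 88085 to 31891 to 48673 CPM. Of 10 midgut markers 4 rose and 4 fell on 1:16 food in each mitotype. Their summed level rose without overlap, from 3717 to 15983 to 18018 to 21951 CPM in Alstonville and from 5050 to 8089 to 13496 to 25480 CPM in Dahomey. Summed neuron markers were at 385 to 514 CPM in all libraries, while of 8 genes 3 rose and 2 fell on 1:16 food in each mitotype. None of the marker lists had a gene at 0 throughout a group except the male and testis list. The part of these tissue and stage markers in the complex I changes was not tested. In whole larvae, fewer cells of a type and less RNA per cell cannot be told apart.

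The comparison of mitotypes asks how larvae with Dahomey mtDNA differ from Alstonville larvae. Between these mtDNAs the study lists amino acid changes in ND4 of complex I, COIII of complex IV and ATP6 of complex V. It also lists differences in rRNA and in the A+T-rich region. On 1:2 food 0 of 39 genes were called by edgeR and 0 had an unadjusted p under 0.05, where 0.0941% and 4.40% of all tested genes did. DESeq2 and limma-trend also called 0. The median log2 fold change of the 32 genes, Dahomey over Alstonville, was -0.21, with 31 of 32 negative, and the libraries overlapped for all 32, while 0.831% of all tested genes had all Dahomey libraries lower. Without Alstonville replicate 4 the direction turned, to a median of 0.10 with 31 of 32 positive. The direction on this diet therefore depended on that library. Without the 1:2 libraries with testis reads (Alstonville replicates 2 and 3 and Dahomey replicates 2 and 4) the median was -0.49. That fit kept Alstonville replicate 4, which weighed more in it. With 3 surrogate variables in limma-trend the median was -0.09.

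On 1:16 food 0 of 39 genes were called by edgeR, where 15.3% of all tested genes were called and 9.30% were lower in Dahomey. At an unadjusted p under 0.05 in edgeR there were 29 of 39, where 32.0% of all tested genes passed. Of these 29, 27 were among the 32 genes and lower in Dahomey, and 2 were below 5 CPM and higher in Dahomey. All 32 genes were lower in Dahomey, with a median log2 fold change of -0.53 (1.45-fold lower) against -0.03 over all tested genes. Single genes ranged from -0.65 (ND-B14.5A) to -0.31 (ND-MWFE), and edgeR adjusted p from 0.0552 (ND-B17.2) to 0.400 (ND-MWFE). For 31 of 32 genes all Dahomey libraries were below all Alstonville libraries, as for 24.2% of all tested genes, and ND-MWFE overlapped. Summed muscle markers were also lower without overlap, at 34398 to 67673 CPM in Dahomey against 70558 to 80827 CPM in Alstonville on this food, with 0 of 13 called by edgeR. Summed fat body markers overlapped, at 31891 to 48673 CPM in Dahomey and 5379 to 35828 CPM in Alstonville, with 2 of 6 called higher in Dahomey and a median log2 fold change of 2.92. All 6 salivary glue genes were called higher in Dahomey, where replicate 2 held 2639 CPM. Summed ecdysone early response markers were higher in Dahomey without overlap, at 329 to 885 CPM against 281 to 301 CPM in Alstonville. Of these 12 genes 2 were called higher by edgeR. The part of these markers in the complex I difference was not tested.

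Among the core subunits ND-51 had the largest difference on 1:16 food, -0.64 (SE 0.22, edgeR adjusted p = 0.0690). ND-24 had -0.55 (SE 0.21), ND-23 -0.54 (SE 0.23), ND-49 -0.51 (SE 0.17), ND-30 -0.50 (SE 0.21), ND-20 -0.49 (SE 0.19) and ND-75 -0.49 (SE 0.26), each with an edgeR adjusted p between 0.0622 (ND-49) and 0.211 (ND-75). ND-B17.2, the accessory subunit with the lowest adjusted p, had 90.4, 87.7, 88.5 and 91.7 CPM in Alstonville and 59.6, 45.8, 71.7 and 60.9 CPM in Dahomey. The lowest Alstonville library of ND-B17.2 was above the highest of Dahomey.

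Whether these differences passed the test depended on the setting. The common fit shares 1 estimate of the spread over all 4 groups. Without Alstonville 1:2 P:C replicate 4, a library outside this comparison, 29 genes were called lower (15.2% of all tested genes were), and without both libraries that stood apart 25 were (11.6%), with a median over the 32 genes of -0.40. DESeq2 called 5 lower (ND-B17.2, ND-B14.7, ND-B14, ND-51 and ND-49; 11.2% of all genes), limma-trend 4 (10.3%), limma-trend with 3 surrogate variables 33 (16.9%), and a fit to the 8 libraries of the comparison 18 (16.2%). In none of the 27 alternatives did any of the 32 genes turn to a higher level in Dahomey.

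**Figure D3:**
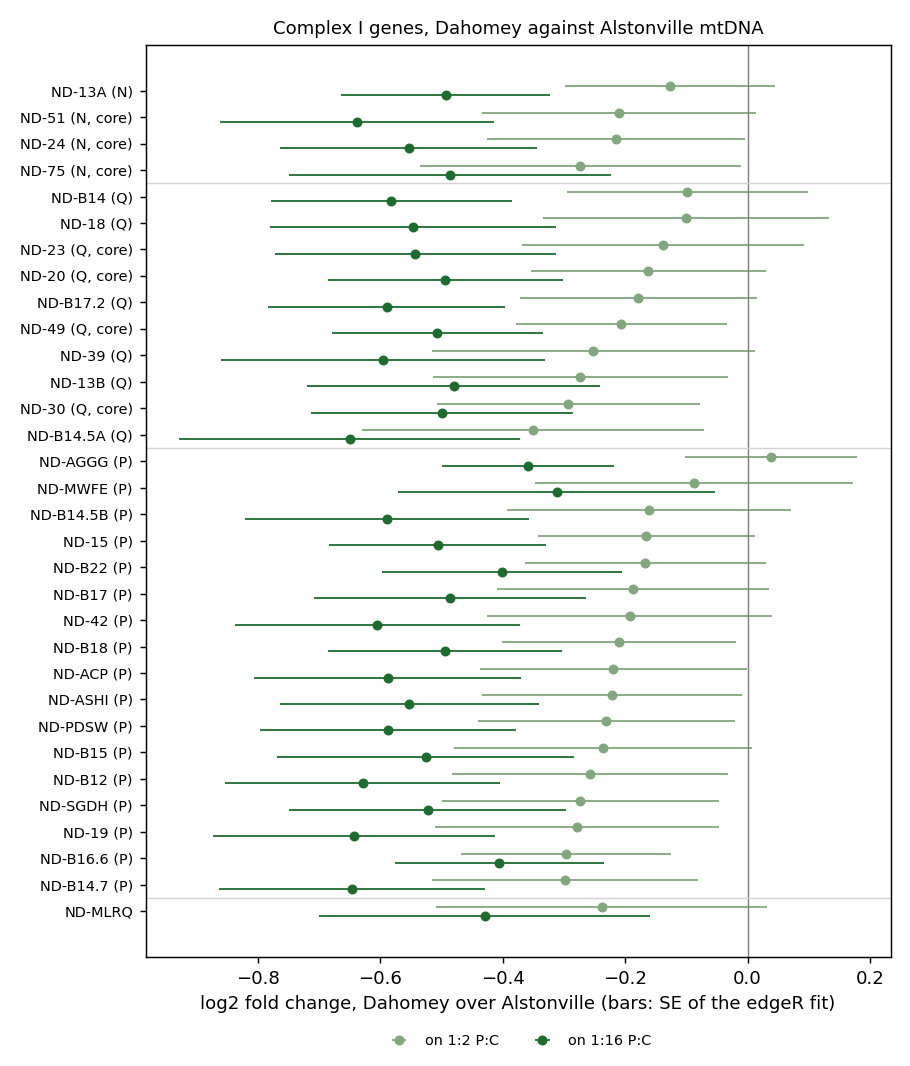
Fitted log2 fold change of Dahomey over Alstonville for the 32 nuclear complex I genes on 1:2 food (light green) and 1:16 food (dark green), with the SE of the edgeR fit as bars, grouped by N, Q and P module. On 1:16 food the values run from -0.65 to -0.31, and on 1:2 food from -0.35 to 0.04.

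The interaction asks whether the mitotype difference itself changed with diet. By edgeR 0 of 39 genes were called and 0 had an unadjusted p under 0.05, where 0.784% and 15.2% of all tested genes did. All 32 genes had a negative value, with a median of -0.34 and edgeR adjusted p from 0.374 (ND-AGGG) to 0.857 (ND-B16.6). Without Alstonville 1:2 P:C replicate 4, 3 genes were called (ND-B14.5B, ND-B17.2 and ND-B14; 2.07% of all genes were called lower) and the median was -0.63, without both libraries that stood apart 11 were (1.69%, median -0.49), and limma-trend with 3 surrogate variables called 14 (7.38%). DESeq2 and limma-trend without surrogate variables called 0 (2.7% and 0.729% of all genes were called lower). The median was -0.19 without Dahomey 1:16 P:C replicate 2 and -0.22 with upper-quartile scaling, and without the 1:2 libraries with testis reads the direction turned, to 0.04 with 19 of 32 genes positive. The latter fit dropped replicates 2 and 3 of Alstonville on 1:2 food and kept replicate 4, which therefore weighed more. The weight of that library and the testis reads cannot be told apart in it.

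Other genes of the respiratory chain moved with the nuclear complex I genes. Complex II had 4 of 4 genes higher on 1:16 food in both mitotypes, complex III 8 of 8 tested, complex IV 9 of 9 and complex V, the ATP synthase, 13 of 13. Median log2 fold changes in Alstonville were 2.03 for complex II, 2.20 for complex III, 1.87 for complex IV and 2.04 for complex V, each above the 1.79 of complex I. In Dahomey they were 1.75, 1.95, 1.65 and 1.77, above the 1.46 of complex I, which is a description of the lists and was not tested. Between mitotypes on 1:16 food 0 genes of complexes II to V were called by edgeR, with medians between -0.58 (complex V) and -0.54 (complex II). The largest changes were those of Cyt-c1 in complex III (2.58 in Alstonville and 2.35 in Dahomey), which carries electrons towards cytochrome c.

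The ratio of summed complex I to complex V levels expresses the smaller change directly. It was 0.527, 0.534, 0.519 and 0.402 in Alstonville on 1:2 food and 0.381, 0.380, 0.388 and 0.389 on 1:16 food. In Dahomey it was 0.514, 0.486, 0.519 and 0.521 and then 0.400, 0.427, 0.395 and 0.398. The ratio was lower on 1:16 food without overlap in both mitotypes, and Alstonville 1:2 P:C replicate 4 lay nearer to the 1:16 libraries than to its own group. The ratio to complex III was 2.57 ± 0.29 and then 1.79 ± 0.03 in Alstonville, and 2.71 ± 0.11 and then 1.92 ± 0.08 in Dahomey (SD, n = 4), a description without a test. The ratio to complex IV overlapped between diets in both mitotypes. It was 1.56 to 1.95 and then 1.62 to 1.67 in Alstonville, and 1.69 to 2.02 and then 1.64 to 1.75 in Dahomey. On 1:16 food the ratio of complex I to muscle markers was 0.059 ± 0.004 in Alstonville and 0.057 ± 0.004 in Dahomey and overlapped between mitotypes. On 1:2 food it ranged from 0.054 to 0.271. Without ND-MLRQ, a setting added after the values were seen, the ratio to complex V was 0.373 to 0.502 and then 0.353 to 0.362 in Alstonville, and 0.451 to 0.493 and then 0.366 to 0.396 in Dahomey, again without overlap between diets.

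The mtDNA-encoded complex I subunits form the core of the membrane arm. Of 7 genes, 4 rose with 1:16 food in Alstonville (ND3 1.62, ND5 1.30, ND1 1.27 and ND4 1.10 on the log2 scale) and 3 in Dahomey (ND3 1.27, ND1 0.55 and ND5 0.54). Of all tested genes 30.6% rose in Alstonville and 24.6% in Dahomey. On 1:16 food ND1 (-0.74, edgeR adjusted p = 0.0142) and ND4 (-0.60, edgeR adjusted p = 0.0469) were lower in Dahomey, as were 9.30% of all tested genes. Their libraries were selected by poly(A), and mitochondrial transcripts carry short tails, so levels of nuclear and mtDNA-encoded genes are set side by side within a library only. The ratio of summed nuclear to mtDNA-encoded complex I levels was 0.552 ± 0.062 in Alstonville and 0.461 ± 0.034 in Dahomey on 1:2 food, and 0.849 ± 0.070 and 0.889 ± 0.049 on 1:16 food (SD, n = 4). The diets did not overlap in either mitotype. The mitotypes did not overlap on 1:2 food, where the lowest Alstonville library was at 0.497 and the highest Dahomey library at 0.489, and they overlapped on 1:16 food.

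**Figure D4:**
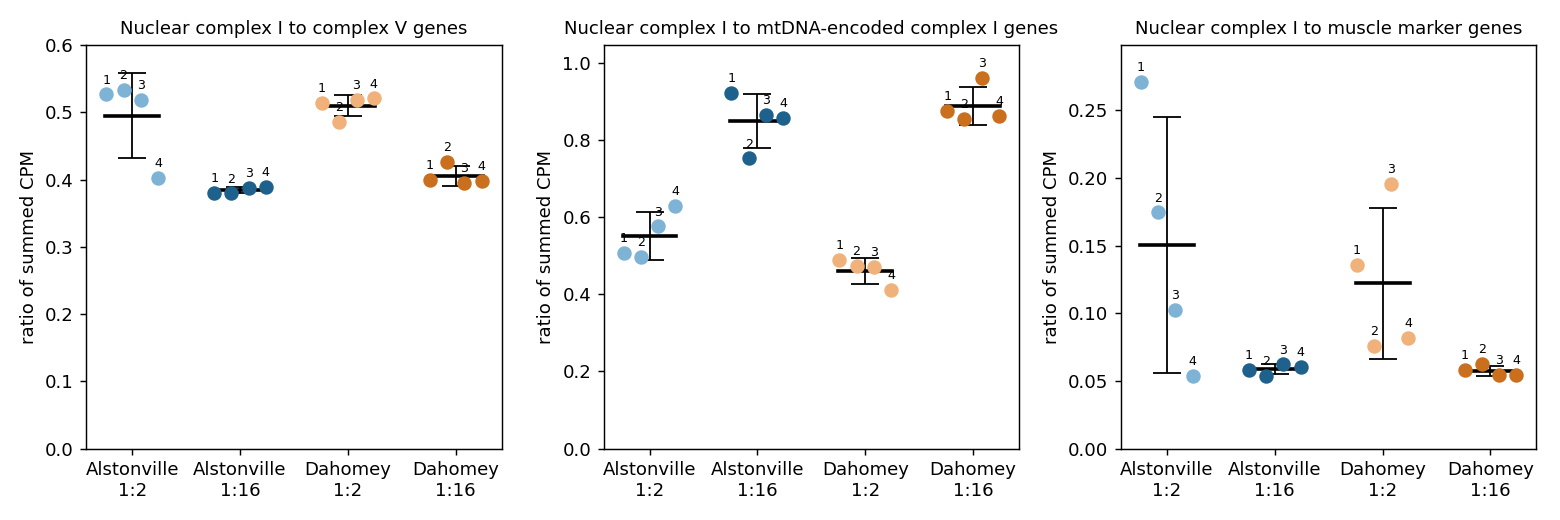
Ratio of the summed CPM of the 32 nuclear complex I genes to that of complex V genes (left), mtDNA-encoded complex I genes (middle) and muscle markers (right) in each library, numbered by replicate, with the group mean (line) and SD (bars, n = 4). The ratio to complex V is 0.380 to 0.427 in the libraries of 1:16 food, and the ratio to mtDNA-encoded genes is 0.753 to 0.961 there.

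Genes that help to build the complex had smaller median changes than its subunits, a difference that was not tested. Of 6 assembly factors 5 rose in each mitotype, where 30.6% of all tested genes rose in Alstonville and 24.6% in Dahomey. The factors had medians of 0.94 in Alstonville and 0.78 in Dahomey on the log2 scale. The largest change was that of ECSIT (1.42 in Alstonville and 0.92 in Dahomey), followed by CG11722 in Alstonville (1.36) and sicily in Dahomey (0.88). Nubpl, which delivers iron-sulfur clusters in human cells, had values of 0.00 and -0.11 and was not called. The 3 nuclear subunits whose symbols lack the prefix rose in both mitotypes, NdufA3 by 2.04 and 1.74, NP15.6 by 1.67 and 1.32, and NdufV3 by 1.35 and 1.01. NdufV3, an accessory subunit of the N module, was lower in Dahomey on 1:16 food (-0.55, edgeR adjusted p = 0.0419). Of 5 other enzymes that feed electrons to ubiquinone, 5 rose in Alstonville and 3 in Dahomey, led by the glycerol-3-phosphate dehydrogenase Gpo1 (4.67 and 4.46) and SdhA of complex II (2.07 and 1.80). Sqor, a sulfide oxidoreductase, was lower in Dahomey on 1:16 food (-0.34, edgeR adjusted p = 0.0368).

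The 6 paralogs and ND-B8 behaved unlike the 32 genes. Except for ND-51L1 and ND-49L, each was over the floor of 3 counts in 7 or 8 of 16 libraries. For 7 of 7 the highest library was Dahomey 1:2 P:C replicate 4, with 437 counts for ND-49L, 430 for ND-51L1, 154 for ND-20L, 118 for ND-51L2, 113 for ND-B14.5AL, 96 for ND-24L and 26 for ND-B8. For the 6 paralogs the next were Alstonville 1:2 P:C replicates 2 and 3. The testis tubulin betaTub85D had 0.294, 62.5, 40.3 and 0.0402 CPM in Alstonville and 0.243, 18.7, 0.316 and 148 CPM in Dahomey on 1:2 food. On 1:16 food it had 0.0885 to 1.43 CPM in Alstonville and 7.68 to 24.5 CPM in Dahomey. The summed male and testis markers, 22 genes found and 19 of them tested, were highest in Dahomey 1:2 P:C replicate 4 (1127 CPM). Alstonville 1:16 P:C replicate 4 followed (534 CPM), and Alstonville 1:2 P:C replicates 2 and 3 were at 336 and 317 CPM. In Alstonville 1:16 P:C replicate 4 the male dosage compensation RNA roX1 alone was at 503 CPM. There betaTub85D was at 1.43 CPM, and the 7 genes summed to 2.31 CPM. The RNA roX1 was at 13.0 to 20.8 CPM in Alstonville 1:2 P:C replicates 1 and 4 and Dahomey 1:2 P:C replicates 1 and 3, and at 113 to 685 CPM in the other 12 libraries. The part of male larvae or tissue in these reads was not tested.

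ND-51L2, a paralog of the flavin subunit on chromosome arm 2R, was the single gene called lower on 1:16 food in Alstonville (edgeR adjusted p = 0.0390), where 29.3% of all tested genes fell. Its counts were 0, 68, 42 and 0 on 1:2 food and 0, 1, 0 and 0 on 1:16 food. Summed over the libraries this is a ratio of 75.3 (95% exact interval for counting error only, 13.2 to 2999), which rests on replicates 2 and 3. The call was lost without either of them and also without any one of the 1:16 libraries. In Dahomey ND-51L2 had 0, 23, 1 and 118 counts on 1:2 food and 10, 6, 4 and 2 on 1:16 food. A count of 3, the floor, corresponds to 0.0941 to 0.121 CPM. ND-B14.5AL had 0 counts in all 4 Alstonville libraries on 1:16 food, and 7, 3, 4 and 16 in Dahomey. For 6 of the 7 genes all Dahomey libraries on this food were above all Alstonville libraries, as for 19.8% of all tested genes, and 0 were called by edgeR, with 2 at an unadjusted p under 0.05.

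**Figure D5:**
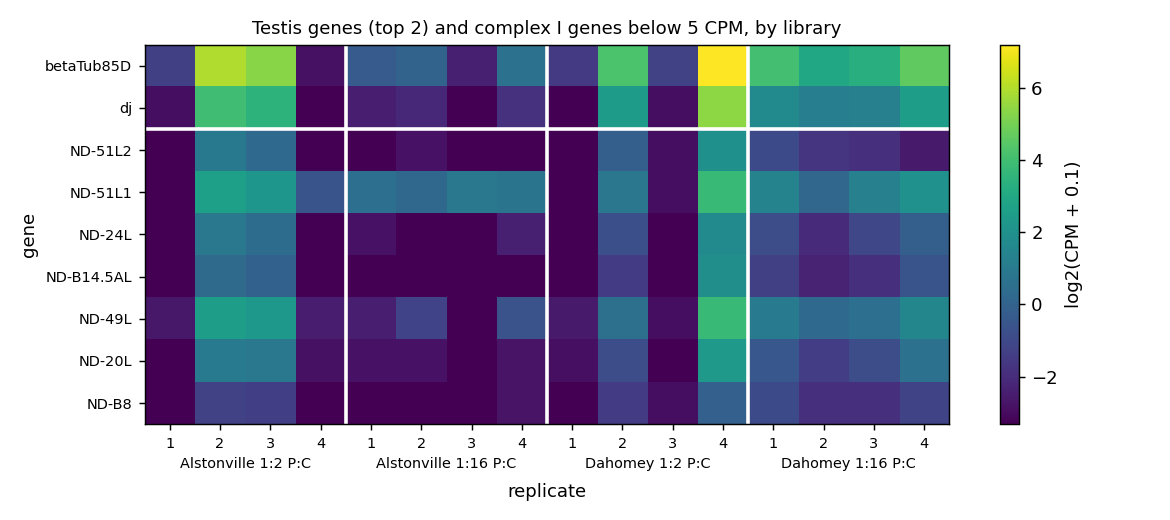
Level of the testis genes betaTub85D and dj (top rows) and of the 7 complex I genes below 5 CPM in each of the 16 libraries, as log2(CPM + 0.1). Dahomey 1:2 P:C replicate 4 is the brightest column in every row, with 148 CPM for betaTub85D.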

How the data were processed

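The authors' files hold raw counts per NCBI gene for 16 libraries, deposited without normalization. Poly(A)-selected read pairs had been mapped with Subread to the RefSeq Release 6 assembly with its mitochondrial genome and counted by featureCounts. Versions and the handling of strand, shared exons and reads mapping to several places are not given in the sources used here. Totals were 24869991 to 31896525 counts per library. Gene positions came from the RefSeq annotation of that assembly. No pair of libraries within a group agreed within sampling noise (lowest chi-square per gene 12.2 over 24 pairs).

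The filter (0.25 CPM, 4 libraries) left 12750 genes. They were scaled by TMM and fitted with 1 coefficient per group by robust quasi-likelihood in edgeR 4.0.16 (R 4.3.3, 12 residual degrees of freedom). SE was obtained by dividing the log2 fold change by the root of F. An adjusted p (Benjamini-Hochberg within a comparison) under 0.05 was called. limma 3.58.1 and DESeq2 1.42.0, other scalings and filters, a replicate block, the libraries compared alone and each library left out were alternatives. The pipeline was tested on simulated data.

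Members are named with library values where they are core subunits, among the 3 largest called changes in each direction, on chromosome 4, or below the filter. ND-MLRQ, ND-B17.2, ND-MWFE and the other genes below 5 CPM were chosen after their values were seen, and other lists are described by counts and their largest changes. Members and lists were chosen with earlier results of these data known.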

Additional observations from a re-analysis of the deposited data

Results flagged for a closer look

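In groups of 4 libraries, 15 of 80 groups tested had a library far from the others by Dixon's criterion, which chance meets in about 1 in 20 groups. These groups share libraries and are not independent.

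Alstonville 1:2 P:C replicate 4 was high for ND-24 (50.3 CPM, others 25.3 to 28.2), ND-49 (140 CPM, others 77.7 to 86.8), ND-30 (54.8 CPM, others 26.0 to 28.9), ND-20 (69.3 CPM, others 37.8 to 40.7), ND-B14.5A (29.8 CPM, others 10.1 to 12.8) and the 32 genes summed (1989 CPM, others 942 to 1082). Its ratio of complex I to complex V was low, 0.402 against 0.519 to 0.534.

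Dahomey 1:16 P:C replicate 2 was high in salivary glue genes (2639 CPM, others 4.20 to 5.74), in ecdysone early response genes (885 CPM, others 329 to 365) and in the ratio of complex I to complex V (0.427, others 0.395 to 0.400). Dahomey 1:2 P:C replicate 2 was high for ND-20 (43.9 CPM, others 40.5 to 41.0) and ND-B14.5A (15.02 CPM, others 11.9 to 12.4).

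Alstonville 1:16 P:C replicate 2 was low for ND-B14.5A (66.7 CPM, others 71.6 to 72.5). It was high in salivary glue genes (6.60 CPM, others 4.44 to 4.76) and was the only one of its group with a read of ND-51L2 (0.041 CPM, others 0).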

How the results depend on the processing

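The 32 genes stayed called higher on 1:16 food in Alstonville under 27 of 27 alternatives, and in Dahomey 26 of the 32 did, the other 6 losing the call in limma-trend with 3 surrogate variables. That setting lowered the median over the 39 genes to 0.78 in Alstonville and 0.47 in Dahomey. On 1:16 food the count of genes called between mitotypes was 5 with DESeq2, 4 and 33 with limma-trend without and with 3 surrogate variables, and 20 in the libraries compared alone (18 lower in Dahomey, and ND-20L and ND-49L higher). Leaving out 1 library gave 0 to 29 calls: 29 without Alstonville 1:2 P:C replicate 4, 3 without its replicate 1 and 1 without Dahomey 1:16 P:C replicate 3. The interaction had 14 calls in limma-trend with 3 surrogate variables and 0 to 3 when 1 library was left out, with a median over the 39 genes of -0.62 without Alstonville 1:2 P:C replicate 4.

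After the values were seen, fits were added without both libraries that stood apart (25 calls between mitotypes on 1:16 food and 11 in the interaction) and without the 1:2 libraries with testis reads (2 calls, ND-20L and ND-49L, and an interaction median of 0.04). In the latter, which kept Alstonville 1:2 P:C replicate 4, the median of the 32 genes between mitotypes on 1:2 food was -0.49. Upper-quartile scaling moved the median of all genes between mitotypes on 1:16 food from -0.03 to 0.11, and that of the 39 complex I genes from -0.51 to -0.37. ND-51L2 lost its call with the replicate block (edgeR adjusted p = 0.0737) and limma-trend (adjusted p = 0.193).

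Replicate numbers did not pair the libraries: 12 of 24 same-numbered pairs had a correlation of deviations over 0.1, and 5 of 16 libraries correlated best with their own number. With the replicate block the calls were 0 and 0 between mitotypes, 0 in the interaction, and 32 with diet in each mitotype. Few reads limit the 7 genes below 5 CPM, whose fitted changes depend on the prior count.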
